A study of Mus musculus with 3 samples.

Results

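Gm26917, Gm42418 and CT010467.1 are 3 neighbouring genes on mouse chromosome 17, of 55536 annotated genes, and were selected on the large share of sequencing counts they held in these libraries. The gene and transcript tables of every library listed all 3 of them, matched from gene identifier to symbol through the transcript names of the second transcript table. Their shares are therefore given as a description, without a test.

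The data were total RNA sequencing of the chromatin fraction of bone marrow-derived macrophages, primary cells of mouse strain C57BL/6J, in libraries from which ribosomal RNA had been depleted. The single group received Lipid A, the portion of lipopolysaccharide that activates TLR4, at 100 ng/ml for 12 h, then 12 h without it, then Lipid A at 100 ng/ml for 20 min. It held 3 libraries, called biological replicates 1, 2 and 3. All of them name 1 donor, so the spread between them may be technical. Sex and age of the animals were not collected. Starting RNA was 1 µg, 250 ng and 500 ng for replicates 1, 2 and 3, and the effect of this amount cannot be told apart from the replicate. Annotated genes held 13610746, 24105317 and 16517065 expected counts in replicates 1, 2 and 3. In the gene table all 8 macrophage markers examined averaged at least 50 counts and summed to 1061, 862 and 953 TPM (a level scaled for transcript length within each library). Marker lists of T and NK cells, B cells, neutrophils, erythroid cells and stroma each summed there to at most 2.17 TPM in every library, and Ncr1, Ly6g and Hbb-bt were listed at 0. In the second transcript table each of these lists held at most 0.00307% of counts, against at least 0.195% for the macrophage list. The T and NK list was higher there, at 0.00241% in replicate 3, against 3.63e-05% in the gene table.

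Ribosomal RNA is transcribed by RNA polymerase I as 1 long precursor. From the 5′ end, the precursor holds an external transcribed spacer, the 18S rRNA of the small subunit, an internal spacer, the 5.8S rRNA, a second internal spacer and the 28S rRNA. The spacers are cut out and degraded in the nucleolus, and spacer RNA is used as a mark of precursor that has not been fully processed. Depletion before sequencing targets rRNA, and the labels do not say which sequences were targeted.

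The 3 genes lay within 5815 bases at chr17:39843013-39848827 of mm10, in the order in which a precursor would hold its first segments. Gm26917 (ENSMUSG00000097971.3), annotated as a lincRNA on the plus strand, spans chr17:39843013-39846341. It ends 11 bases before a transcript of type rRNA at chr17:39846353-39848201, annotated on the minus strand. Gm42418 (ENSMUSG00000098178.1), a lincRNA on the plus strand at chr17:39846958-39848788, has 1244 of its 1831 bases inside the extent of this rRNA transcript and 587 beyond it. The third gene, CT010467.1 (ENSMUSG00000106106.2), of biotype rRNA on the minus strand, holds that rRNA transcript and another one, of type pseudogene, at chr17:39848103-39848827. The pseudogene transcript has 4 exons parted by gaps of 2 to 5 bases. RefSeq lists at this place, at chr17:39846354-39848202 of GRCm38.p6, the pseudogene Rn18s-rs5, with Gm42418 among its synonyms. The only other annotated gene within 20 kb was AY036118, a lincRNA on the minus strand that lies wholly inside the rRNA transcript in this annotation. RefSeq places AY036118 at chr17:39848112-39898385, mostly beyond it.

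**Figure D1:**
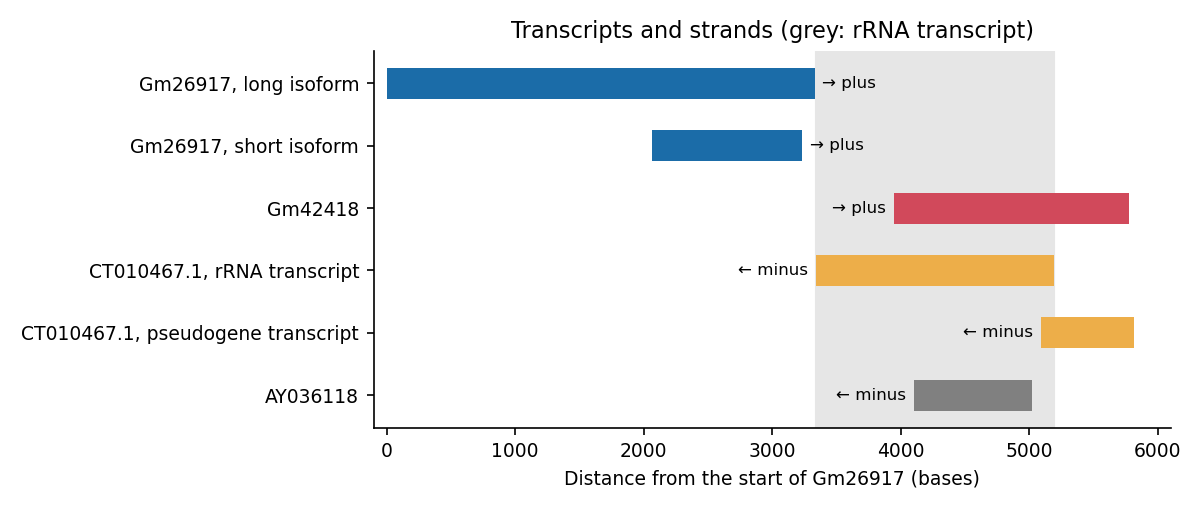
Transcripts of the 3 genes and of AY036118 along chromosome 17, with distance in bases from the start of Gm26917 on the horizontal axis, bars from start to end of each transcript and the strand written beside each bar. Gm26917 stops before the grey extent of the rRNA transcript, whereas Gm42418 starts inside it and runs past its end, on the strand opposite to both CT010467.1 transcripts.

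The sequence across the end of the rRNA transcript is shown because Gm42418 and CT010467.1 hold the same bases there on opposite strands. The first line below is Gm42418 as transcribed, at chr17:39848162-39848241 of mm10, plus strand, and the next is the pseudogene transcript of CT010467.1 over the same bases on the minus strand. Capitals mark the bases inside the rRNA transcript.
Gm42418: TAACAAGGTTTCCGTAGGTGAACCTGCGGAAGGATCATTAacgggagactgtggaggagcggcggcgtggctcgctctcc
CT010467.1, pseudogene transcript: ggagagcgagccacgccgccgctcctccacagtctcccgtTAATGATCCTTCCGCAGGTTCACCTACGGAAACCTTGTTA
The capitals of the Gm42418 line are, as background, the 3′ end of 18S rRNA written in its sense direction, and its lower-case bases follow in the first internal spacer. The CT010467.1 line is the reverse complement, so both CT010467.1 transcripts are annotated antisense to the rRNA itself.

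The other boundary separates Gm26917 from 18S rRNA. The last 60 bases of Gm26917, at chr17:39846282-39846341 on the plus strand, and the last 60 bases of the rRNA transcript of CT010467.1, at chr17:39846353-39846412 on the minus strand, are shown with the same use of capitals.
Gm26917: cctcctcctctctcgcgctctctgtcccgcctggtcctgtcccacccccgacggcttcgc
CT010467.1, rRNA transcript: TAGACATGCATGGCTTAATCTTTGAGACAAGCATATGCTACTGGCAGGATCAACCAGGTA
Gm26917 thus holds sequence upstream of 18S rRNA, where the precursor has its external spacer, and no base of 18S rRNA.

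These transcripts shared a composition that the choice of genes did not use. GC content was 69.1% in the long isoform of Gm26917, 68.5% in the pseudogene transcript of CT010467.1 and 60.2% in Gm42418, against a median of 49.2% and a 99th percentile of 64.9% over 141767 annotated transcripts. The rRNA transcript of CT010467.1 had 55.4% GC. Their observed over expected CpG ratios lay between 0.94 and 1.05, against a median of 0.35 over all transcripts. Divided into words of 31 bases, Gm42418 shared 558 words with the pseudogene transcript and 1214 with the rRNA transcript of CT010467.1, all in the opposite orientation and none in the same one. Gm26917 shared no word with either gene. No word of any of these transcripts occurred in an annotated transcript of a gene elsewhere.

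Gm26917 held most of the counts of the locus. It had 1358685, 3467010 and 2672550 expected counts in replicates 1, 2 and 3, which were 9.98, 14.4 and 16.2% of the counts of all genes (13.5% ± 3.19, SD, n = 3). By counts it ranked 2, 1 and 1 among all genes in these libraries, with Malat1, a nuclear lincRNA of speckles, next to it in each. Since the libraries are bulk samples, fewer cells that make a transcript and less of it per cell cannot be told apart. Nearly all of its counts fell on 1 isoform, because the 1-exon transcript of 3329 bases took 1358670.41, 3466972.43 and 2672489.02. The 2-exon transcript of 869 bases had 14.59, 37.57 and 60.98 counts.

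Gm42418 came next, with 130703.67, 394391.28 and 331033.03 expected counts, or 0.960, 1.64 and 2.00% of all counts in replicates 1, 2 and 3 (1.53% ± 0.529, SD, n = 3). CT010467.1 had 26406.33, 256282.72 and 89887.97 expected counts, or 0.194, 1.06 and 0.544% (0.600% ± 0.437, SD, n = 3). Replicate 1 was lowest for both genes, but Gm42418 was highest in replicate 3 and CT010467.1 in replicate 2. Counting error was small beside these differences, with an exact Clopper-Pearson 95% interval of 0.192 to 0.196% for the lowest value, that of CT010467.1 in replicate 1. Such intervals cover counting error only. In mean share Gm42418 stood between Malat1 (10.6%) and Xist (1.33%), and CT010467.1 between Neat1 (1.14%) and Rmrp, the RNA of RNase MRP (0.324%).

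Within CT010467.1 the rRNA transcript was nearly empty. Its pseudogene transcript held 26169.93, 255650.88 and 89680.86 counts in replicates 1, 2 and 3, whereas its rRNA transcript held 236.40, 631.84 and 207.11. Scaled for length, the pseudogene transcript reached 4505, 20919 and 13467 TPM and the rRNA transcript 12.3, 15.1 and 9.07 TPM. The gene of biotype rRNA thus received its counts on a transcript that lies mostly beyond 18S rRNA, with 97 of its 714 bases inside the extent of the rRNA transcript. AY036118, whose words all occur in the rRNA transcript, had 0 counts in every library. Since the same words occur in Gm42418 too, reads from it could be assigned elsewhere, and this 0 sets no upper limit.

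Per length the genes stood in another order than by counts. Gm26917 had 37072, 43089 and 60837 TPM in replicates 1, 2 and 3 of the gene table, ranking 2, 4 and 3 among all genes. CT010467.1 had 4517, 20934 and 13476 TPM, and Gm42418 had 6885, 9533 and 14660 TPM. CT010467.1 was thus above Gm42418 in replicate 2 and below it in replicates 1 and 3. In the second table the pseudogene transcript of CT010467.1 had 22025, 38672 and 41213 TPM and Gm42418 had 6203, 9684 and 12884 TPM, so there CT010467.1 was above Gm42418 in every library.

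Set side by side per length, the spacer sequence upstream of 18S rRNA exceeded the rRNA transcript by a wide margin. The long isoform of Gm26917 had 3009, 2853 and 6707 times the TPM of the rRNA transcript of CT010467.1 in replicates 1, 2 and 3 of the first transcript table. In the second table the same ratios were 1650, 2419 and 3846. In the first transcript table Gm42418, which contains part of 18S rRNA as well as spacer, had 559, 631 and 1616 times its TPM. Of the 1819 words of the rRNA transcript, 1214 also occur in Gm42418, in the opposite orientation. Reads of 18S sequence in this shared part could therefore be assigned to Gm42418, and the TPM of the rRNA transcript sets no upper limit on it. For the shared part, removal by the depletion, a low level before it and such assignment of reads cannot be told apart in these tables. The other 605 bases of the rRNA transcript lie outside Gm42418, so such assignment does not extend to them. For these bases, removal and a low level before it cannot be told apart. The strand setting is not given, so whether sense reads there could count for this minus-strand transcript is unknown.

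Beyond CT010467.1 the biotype rRNA was nearly empty. CT010467.1 held 99.996, 99.999 and 100.0% of the counts of the 354 genes of that biotype in replicates 1, 2 and 3, and 351 of the other 353 had 0 counts in every library. Gm26917 and Gm42418 together took 44.3, 54.7 and 55.7% of the counts of the 5854 lincRNA genes. The lincRNA counts of these libraries were therefore divided nearly evenly between this locus and all other lincRNA genes.

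The division of reads left a trace in the expected counts. Gm26917 had whole expected counts in all 3 libraries (to within 0.01), as did 69.8% of the 11630 genes averaging at least 50 counts. Gm42418 and CT010467.1 did not have whole counts in any library. Their sums did, with 157110, 650674 and 420921 counts in replicates 1, 2 and 3. The posterior SD of the count, which the authors' tables give as the uncertainty of assigning reads, was the same for both genes, at 193.63, 327.64 and 332.49 counts. For Gm26917 it was 0, 0.04 and 0. Reads of the pair were thus divided between genes on opposite strands, so the level of either gene alone is uncertain. Whether the counting used strand is not given, and without strand such reads cannot be told apart. The posterior SD was at most 0.733% of the count of CT010467.1, far below the differences between tables given next.

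The 2 quantifications divided the pair differently. CT010467.1 had 0.906, 1.91 and 1.66% of counts in the second transcript table, against 0.194, 1.06 and 0.544% in the gene table for replicates 1, 2 and 3. The second table thus gave it 4.67, 1.80 and 3.05 times the share, a mean log2 difference of 1.56 ± 0.69 (SD, n = 3) that was larger than for 97.0% of genes. For Gm42418 the second table had 0.829, 1.51 and 1.68%, against 0.960, 1.64 and 2.00% in the gene table. Its share was lower in the second table in each library. Gm26917 had 10.4, 15.6 and 17.8% in the second table, against 9.98, 14.4 and 16.2% in the gene table, a mean log2 difference of 0.10 ± 0.04 (SD, n = 3).

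A share above that of the gene table in every library was found for Gm26917 and CT010467.1 and for 42.4% of all genes. None of the 3 genes was at least 2-fold above in every library, against 5.17% of all genes, and CT010467.1 missed this in replicate 2 alone. The sum of the pair was 1.73, 3.41 and 3.34% in the second table, against 1.15, 2.70 and 2.55% in the gene table. In share, the gain of CT010467.1 was thus larger than the loss of Gm42418. Gene totals of the second table were 1.61, 1.73 and 1.72 times those of the gene table in replicates 1, 2 and 3. Shares of the 2 tables thus rest on unlike totals. Counts of Gm42418 were higher in the second table, at 181043, 628487 and 476221, so its lower share was no loss of counts. By counts in the second table, Gm26917 ranked 1 in each library and CT010467.1 ranked 4, 3 and 4, against 23, 6 and 7 in the gene table. Malat1 had 6.91, 6.75 and 7.35% in the second table, against 10.4, 10.3 and 11.2% in the gene table.

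**Figure D2:**
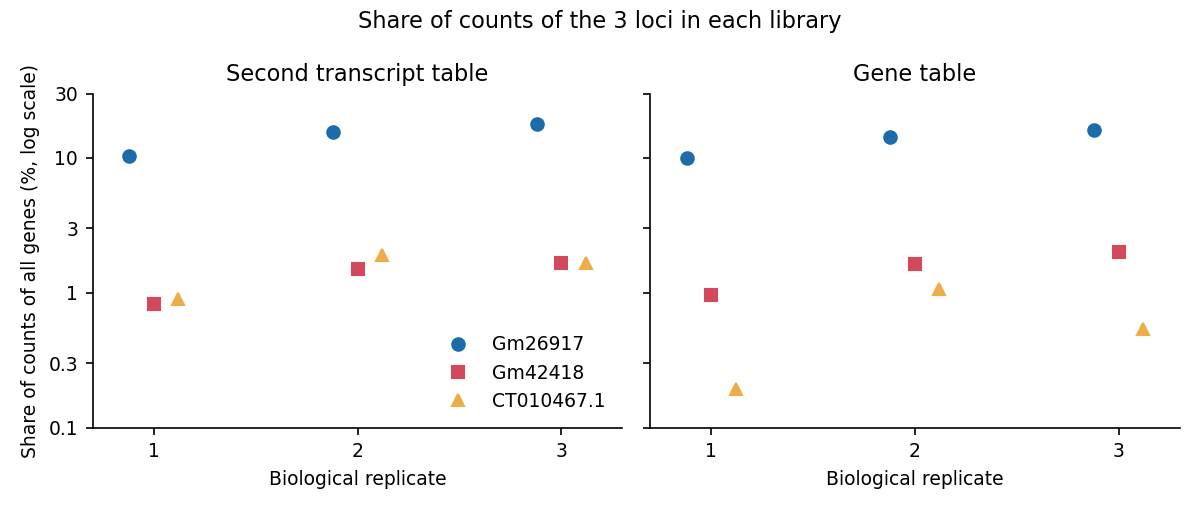
Share of the counts of all genes (%, log scale) of each gene in replicates 1, 2 and 3, in the second transcript table on the left and the gene table on the right, with 1 point per library. CT010467.1 lies close to Gm42418 in the second table and below it in the gene table, where it spans 0.194 to 1.06%.

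The shares co-varied between libraries in part. Jointly the 3 genes held 11.1, 17.1 and 18.7% of counts in replicates 1, 2 and 3 of the gene table (15.6% ± 3.99, SD, n = 3). Each gene was lowest in replicate 1, as were 30.3% of the 11630 genes. Gm26917 and Gm42418 had the order replicate 1, 2, 3 from low to high, as did 10.7% of genes, while CT010467.1 was highest in replicate 2. The joint share in the second table was 12.1, 19.1 and 21.1%, with the same order of libraries. The SD of the joint log2 share was 0.40 in the gene table and 0.094 without replicate 1, the library on which the spread rests.

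The ratio of Gm42418 to Gm26917 moved 1.21-fold between libraries in the second table and 1.29-fold in the gene table. Gm42418 counts were 0.0798, 0.0963 and 0.0943 of those of Gm26917 in the second table, against 0.0962, 0.114 and 0.124 in the gene table for replicates 1, 2 and 3. The mean log2 ratio was −3.48 ± 0.15 in the second table and −3.18 ± 0.19 in the gene table (SD, n = 3). The ratio of CT010467.1 to Gm42418 was 1.09, 1.27 and 0.989 in the second table, against 0.202, 0.650 and 0.272 in the gene table. Its mean log2 value was 0.15 ± 0.18 in the second table and −1.60 ± 0.88 in the gene table (SD, n = 3). In the gene table this ratio therefore moved 3.22-fold between libraries, whereas its libraries lay close together in the second table.

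**Figure D3:**
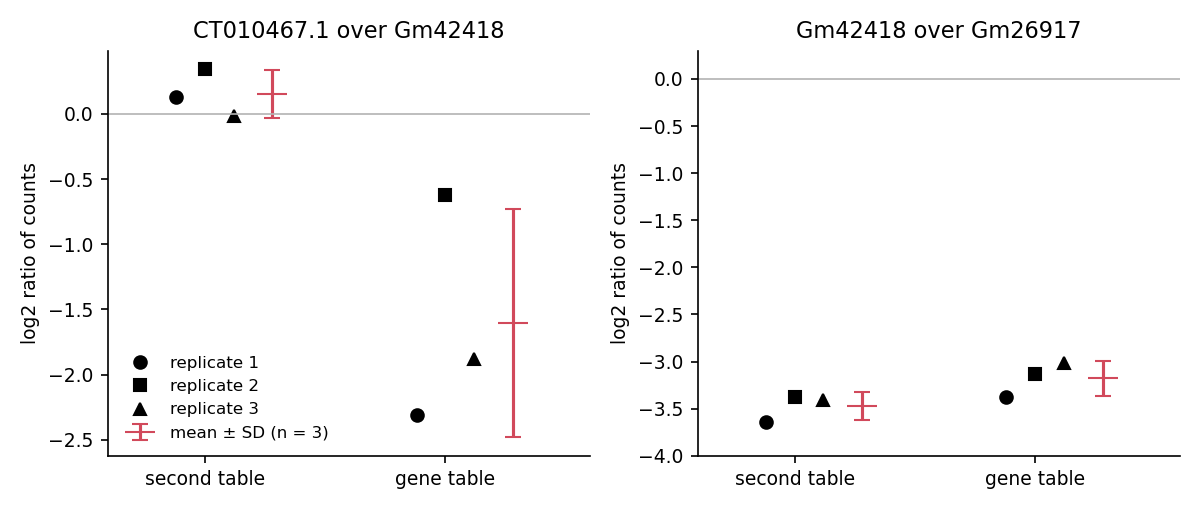
Log2 ratio of counts of CT010467.1 over Gm42418 (left) and of Gm42418 over Gm26917 (right), in the second transcript table and the gene table, with 1 black symbol per library and the mean ± SD (n = 3) in red. The ratio of the overlapping pair scatters from −2.31 to −0.62 in the gene table and lies near 0 in the second table.

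The same comparison can be made over whole profiles. The log2 shares of a gene were centred on their mean over the 3 libraries, and likeness was the Euclidean distance between 2 genes over these 3 values, which share library and depth. Between CT010467.1 and Gm42418 the distance was 0.26 in the second table, against 1.24 in the gene table. Between CT010467.1 and Gm26917 it was 0.36 in the second table, against 1.37 in the gene table. Gm42418 and Gm26917 were 0.21 apart in the second table, against 0.26 in the gene table. Distances among the 3 profiles were thus at most 0.36 in the second table, and CT010467.1 was farther from the other genes in the gene table. How many genes elsewhere lay as near in the second table was not examined.

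The spread between libraries was above the median gene for all 3 genes. The SD of the log2 share was 0.36 for Gm26917, 0.55 for Gm42418 and 1.24 for CT010467.1, against a median of 0.20 over 11630 genes. This was above 80.8, 93.0 and 99.5% of genes for Gm26917, Gm42418 and CT010467.1. The highest share was above the lowest 1.62-fold for Gm26917, 2.09-fold for Gm42418 and 5.48-fold for CT010467.1. A ratio of at least 2 was thus reached by Gm42418 and CT010467.1, as by 8.05% of all genes. Among 164 genes that averaged at least 10000 counts, where counting error is small, the median SD was 0.24 and only Rmrp, in its lincRNA entry, exceeded CT010467.1, at 1.62. Of these 164 genes, 13 had an SD at or above that of Gm42418 and 41 at or above that of Gm26917, both counts including the gene itself. In the second table the SD of CT010467.1 was 0.57, and those of Gm42418 and Gm26917 were 0.55 and 0.41. The spread of CT010467.1 was thus smaller in the second table, where it was close to that of Gm42418, which was nearly equal in both tables.

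**Figure D4:**
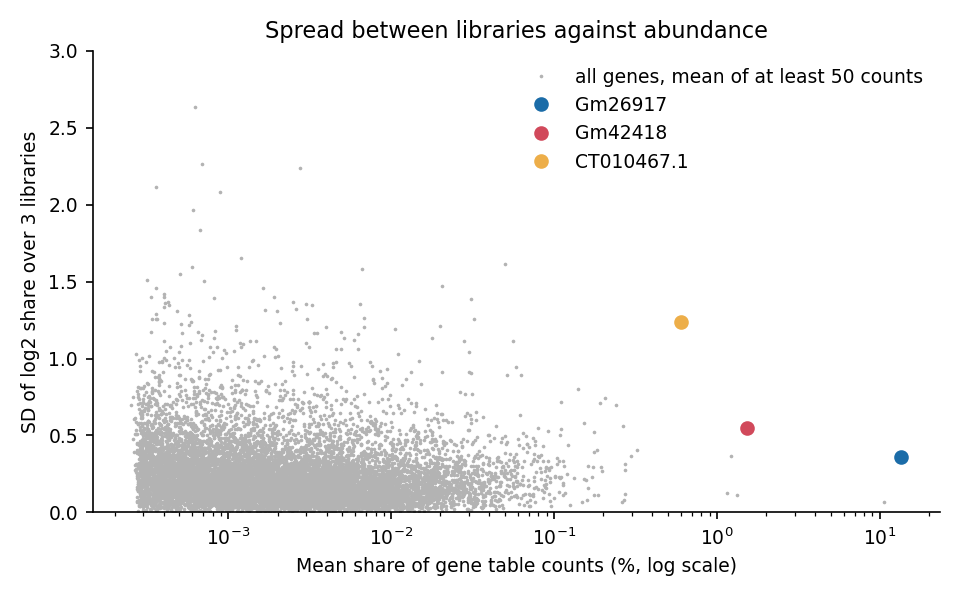
SD of the log2 share over the 3 libraries against the mean share of gene table counts (%, log scale), with 1 grey point per gene averaging at least 50 counts. CT010467.1 (1.24), Gm42418 (0.55) and Gm26917 (0.36) lie at the abundant end, and Gm26917, the most abundant gene, has the smallest SD of the 3.

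Malat1 and the remaining lincRNA genes did not share the low value of replicate 1. Malat1 held 10.4, 10.3 and 11.2% of counts in replicates 1, 2 and 3, an SD of log2 share of 0.07. Gm26917 counts were 0.962, 1.40 and 1.45 times those of Malat1 in these libraries. All lincRNA genes without Gm26917 and Gm42418 held 13.8, 13.2 and 14.4%. Of 10 abundant nuclear or structured RNAs listed, 8 averaged at least 50 counts and 1 of these, Rn7sk, reached a 2-fold spread, with its lowest share in replicate 2. Of these 8 genes 3 were lowest in replicate 1, against 30.3% of the 11630 genes averaging at least 50 counts. Rn7s1 and Rn7s2 were 2 of the 3 and had identical values, so they are 1 measurement. The other was the ribozyme entry of Rmrp with 0.228, 0.371 and 0.374% of counts, a profile near that of Gm26917. This entry overlaps the lincRNA entry of Rmrp, with 0.0109, 0.102 and 0.0374% of counts. The profile therefore depends on how reads were divided between the 2 entries. Mitochondrial rRNA, which is made outside the nucleus, had 0.00840, 0.000680 and 0.00403% of counts, highest in replicate 1 where the locus was lowest. The sequence of phiX, a phage used as a sequencing control, took 2.46, 0.484 and 0.327% of all counts, again highest in replicate 1. PhiX stayed out of the gene totals, and any other link of phiX or of mitochondrial rRNA to the shares of the locus was not tested.

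**Figure D5:**
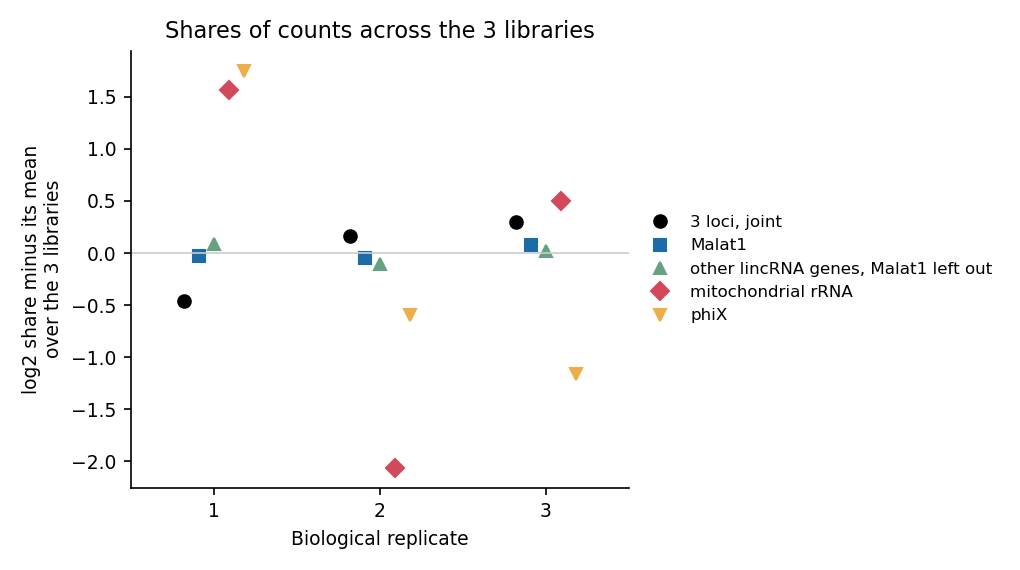
Log2 share of counts minus its mean over the 3 libraries, for the 3 genes jointly, Malat1, the remaining lincRNA genes, mitochondrial rRNA and phiX, with 1 symbol per library. The joint share lies 0.46 below its mean in replicate 1, Malat1 stays within 0.08 of its mean, and mitochondrial rRNA and phiX are highest in replicate 1.

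The genes with the most similar profiles were mostly of low abundance. For Gm26917 they were Ccpg1, Soga1, Mterf1b, Galnt12 and Gm42895, at distances from 0.02 to 0.04. For Gm42418 they were Alkbh4, Ndufv1, Gab1, Zfp395 and BC021767, at distances from 0.0085 to 0.08. For CT010467.1 the nearest were Gm26759, Syne2, Plxna3, the lincRNA entry of Rmrp and Npl, at distances from 0.25 to 0.63, so no gene matched it closely. The Rmrp entry, with 0.0109, 0.102 and 0.0374% of counts in replicates 1, 2 and 3, overlaps a ribozyme gene of the same symbol, and its counts are uncertain for that reason. By the same measure Gm42418 was at place 602 for Gm26917 and Gm26917 at place 98 for Gm42418, so many genes elsewhere had profiles as near over 3 libraries.

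Genes of the machinery that makes and processes rRNA varied about as much as genes in general, of which 8.05% reached a 2-fold spread at a median SD of 0.20. Of 15 genes of RNA polymerase I and its factors, 13 averaged at least 50 counts, none reached a 2-fold spread and the median SD of log2 share was 0.14. The highest by TPM were Taf1d, a subunit of the selectivity factor SL1 (143 TPM on average), Ubtf, the upstream binding factor (29.8 TPM), and Ttf1, the termination factor (20.3 TPM). Polr1e, a subunit of the polymerase, was lowest at 1.75 TPM, and with 12, 31 and 30 counts in replicates 1, 2 and 3 it was not among the 13. Of 18 rRNA processing genes, all averaged at least 50 counts and 1 reached a 2-fold spread, namely Rrp12, which was also lowest in TPM (2.27). Xrn2, an exonuclease that trims and degrades spacer RNA, led with 90.4 TPM, followed by Wdr43 (50.3 TPM) and Ncl, or nucleolin (41.3 TPM). The median SD of this list was 0.21.

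The small nucleolar RNAs (snoRNAs) that take part in rRNA processing were less steady. Of 13 listed, 6 averaged at least 50 counts, and all 6 reached a 2-fold spread, against 8.05% of all genes. For Rnu3a, with 59.49, 186.48 and 0 counts in replicates 1, 2 and 3, this rests on the 0. The median SD of log2 share was 0.95, with a small floor in place of that 0. The summed share of the list was 0.0194, 0.0573 and 0.0175% in replicates 1, 2 and 3, highest in replicate 2, as for CT010467.1 in the gene table. The leading members by TPM were Snord22, Snora73b and Snora73a. Snord22 was listed at 0 TPM in replicate 2 although it had 2251.27 counts there. The copies of U3 (Rnu3b2 and Rnu3b4) are near-identical genes with identical values, so 2 of the 6 are 1 measurement, and 4 listed genes had 0 counts in all libraries. In the second table Rnu3a had 0.00648, 0.0136 and 0.00676% of counts in replicates 1, 2 and 3. Rnu3b2 and Rnu3b4 each had at most 3.07e-06% there. The calls of Rnu3a, Rnu3b2 and Rnu3b4 thus depend on the quantification.

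The size of the locus bears on the scale of every other gene. With the 3 genes left out of the totals, CPM (counts scaled to the library total) of the other genes would be 1.13, 1.21 and 1.23 times higher in replicates 1, 2 and 3. Between replicates 3 and 1 this was a difference of 0.13 on the log2 scale. On the TPM scale, where the joint share was 4.88, 7.36 and 8.90%, the factors were 1.05, 1.08 and 1.10, a difference of 0.06 between replicates 3 and 1. The number of genes with a 2-fold spread was 885 with the 3 genes left out of both the totals and the genes counted. With them it was 936, which includes Gm42418 and CT010467.1.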

How the data were processed

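Per the notes deposited with each library, values refer to mm10 and annotation M21. Not given in the sources used here were the aligner, the strand setting and the programs with their versions. Per the file headers, the authors' gene and first transcript tables hold expected counts, TPM and FPKM, and the transcript table also the percent of a gene's TPM per isoform. The authors' second transcript table holds estimated counts and TPM, which were summed per gene, and 86 genes not listed in it entered at 0. The authors' posterior SD of the count was used as deposited.

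Shares are expected counts over the total of annotated genes, and entries that name no gene (2.46, 0.484 and 0.327% of counts) stayed out. Symbols, biotypes and sequences came from GENCODE M21. Spread was the SD of log2 share over 3 libraries, over genes averaging at least 50 counts. With 1 group no test was run. Words of 31 bases were compared in both orientations. The 3 genes and all gene lists were chosen with earlier results of these data known. Genes named are the 3 genes, neighbours within 20 kb, the 5 next by mean share, the 5 nearest profiles per gene and, per list, the 3 highest and the lowest by TPM. A few others, such as Rn7sk, Rn7s1, Rn7s2, Rnu3a, Rnu3b2 and the markers at 0, were named after their values were seen. Likeness and fold calls were tested on simulated data. For alternatives, expected counts were rounded and scaled by edgeR 4.0.16 (TMM factors 1.03, 0.984 and 0.985) or DESeq2 1.42.0 (size factors 0.801, 1.36 and 0.927). Software was Python 3.11.15 (pandas 2.3.3, numpy 2.4.6, scipy 1.17.1, matplotlib 3.10.9) and R 4.3.3.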

Additional observations from a re-analysis of the deposited data

Results flagged for a closer look

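The sequence of phiX, which entered no comparison of genes, held 2.46% of all counts in replicate 1, 0.484% in replicate 2 and 0.327% in replicate 3, far above the limit that a count of 0 allows. Where it was highest, in replicate 1, the joint share of Gm26917, Gm42418 and CT010467.1 was lowest. PhiX stayed out of the totals of that share. With all entries in the totals the mean joint share was 15.5%, against 15.6%, and the SD of its log2 was 0.42, against 0.40. Any other link of phiX to that share was not tested.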

How the results depend on the processing

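The mean log2 ratio of CT010467.1 to Gm42418 changed sign, from −1.60 ± 0.88 by gene table counts (SD, n = 3). It was 0.15 ± 0.18 in the second transcript table and 0.14 ± 0.90 by TPM and by FPKM, which scale for length. These positive means lay within 1 SD of 0. By TPM the log2 ratio was −0.61, 1.13 and −0.12 in replicates 1, 2 and 3, so replicate 2 alone was above 0. By gene table counts without 1 replicate at a time the mean was −2.09 to −1.25. The log2 ratio of Gm42418 to Gm26917 kept its sign, at −3.18, with −3.48 in the second table and −2.22 by TPM and FPKM. The joint share of 15.6% was 7.05% by TPM and by FPKM. The SD of the joint log2 share, 0.40, was 0.094 without replicate 1 and was 0.53 without replicate 2, so the spread rests on replicate 1. The mean log2 difference of the joint share between the second table and the gene table was 0.15, and 0.48 on TPM shares. The count of genes with a 2-fold spread, 936, was 2363 at a mean of at least 10 counts and 6361 with no such filter and a prior count of 2. Without 1 replicate it was 327 (without replicate 1) to 672 (without replicate 3), with 377 without replicate 2, where fewer libraries were compared. TMM factors gave 890 and size factors 893. For the other changes the cause was not tested.

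No paired analysis was possible because the series held 1 group. With 3 libraries of 1 donor entry and no untreated cells, no value is an effect of Lipid A. Reads over the shared bases of Gm42418 and CT010467.1 cannot be told apart here without the strand setting, which is not given. The 0 counts of AY036118 share this limit.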
